A study of Mus musculus with 6 samples.

Results

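Hmox1, Fth1, Slc7a11, Cat, Sod1 and Gpx4 encode 6 proteins that handle heme, iron and reactive oxygen, and their mRNA levels were followed in fat grafts. They are 6 of the 12163 genes in the deposited table, and all 6 were found in it by gene name and passed the filter on low values. They were chosen by their measured difference between these same libraries, so their values are given as a description with no test. Fat RNA of wild-type mice of the inbred strain C57BL/6 was sequenced 7 days after grafting (3 libraries) and before grafting (3 libraries). Each group has 3 biological replicates according to the submitters. Fat depot, site of the graft, sex and age are missing from the labels, which do not say whether mice were pooled either. Hmox1, Fth1 and Slc7a11 were higher in grafts, by 37.7-fold, 6.99-fold and 56.3-fold between group means. Cat, Sod1 and Gpx4 were lower in grafts, with means 7.13-fold, 3.03-fold and 2.81-fold higher before grafting.

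Heme, the iron-holding ring of hemoglobin and of many enzymes, is opened by heme oxygenase 1, the product of Hmox1, into biliverdin, carbon monoxide and free iron. Free iron turns hydrogen peroxide into far more reactive radicals, so cells store it inside ferritin, a shell built from heavy chains (Fth1) and light chains (Ftl1). Slc7a11 encodes xCT, the membrane carrier that brings in cystine, from which cells make the antioxidant peptide glutathione. Superoxide is turned into hydrogen peroxide by the cytosolic enzyme superoxide dismutase 1 (Sod1), and catalase (Cat), mostly in peroxisomes, splits hydrogen peroxide into water and oxygen. Glutathione peroxidase 4 (Gpx4) uses glutathione to repair oxidised membrane lipids, and its loss leads to ferroptosis, an iron-dependent form of cell death. Ferritin is regulated strongly after transcription, so its mRNA level alone does not give its protein level.

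Some sequences show how these mRNAs are read. In low iron, proteins that sense iron hold a hairpin near the start of ferritin mRNA, the iron responsive element, and block its translation. The hairpins of both ferritin chains and of the iron exporter Slc40a1 (ferroportin) are printed in the sense of the mRNA, with the loop in capitals, because these genes are compared below. They were read from GENCODE M21 transcripts (GRCm38) at chr19:9982732-9982759 on the plus strand for Fth1, chr7:45459780-45459807 on the minus strand for Ftl1 and chr1:45925466-45925493 on the minus strand for Slc40a1.
Fth1: ttcctgcttcaaCAGTGCttgaacggaa
Ftl1: gtcttgcttcaaCAGTGTttgaacggaa
Slc40a1: caacttcagctaCAGTGTtagctaagtt

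Gpx4 belongs to the selenoproteins, whose mRNAs read an in-frame TGA, normally a stop codon, as the amino acid selenocysteine. The stretches around that codon are shown, with TGA in capitals, for Gpx4 and the relatives it is set beside, because genes that make selenoproteins are among those described below. They lie at chr10:80054725-80054751 (plus strand) for Gpx4, at chr9:108339439-108339465 (plus strand) for Gpx1 and at chr11:54907244-54907270 (plus strand) for Gpx3, in GRCm38. The codon is number 129 of 253 in the Gpx4 transcript read here, number 47 for Gpx1 and number 73 for Gpx3. These numbers hold for the transcripts read, and which Gpx4 transcripts the fat samples held was not tested.
Gpx4: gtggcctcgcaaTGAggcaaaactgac
Gpx1: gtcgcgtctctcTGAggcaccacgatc
Gpx3: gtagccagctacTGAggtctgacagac

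The Slc7a11 promoter is shown because this gene had the largest fold difference of the 6. The 120 bases before its start, from RefSeq (GRCm38.p6, chr3:50443614-50443733, minus strand), hold the core of the amino acid response element, which the factor ATF4 binds. The core was searched as TGATGNAA on both strands in the 250 bases before the start, and its matches, in capitals, begin at positions -66 and -47. The same core is in 3.45% of all 32817 promoters of that table.
Slc7a11: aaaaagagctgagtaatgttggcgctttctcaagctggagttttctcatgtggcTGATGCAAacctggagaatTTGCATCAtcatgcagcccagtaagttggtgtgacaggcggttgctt
Promoters of 5 of the 6 genes were in the table. The antioxidant response element core TGACNNNGC matched the window of Sod1 at position -56 and no window of Fth1, Slc7a11, Cat or Gpx4, against 10.2% of all promoters. None of these windows held TGANTCA (AP-1, in 6.75% of all promoters) or ACGTG (the hypoxia response core, in 16.6%). A match is a description of letters, and a missing match says nothing of a factor's binding elsewhere.

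The deposited values are taken as normalized counts, since they are whole multiples of 1 step per library, as reads divided by a size factor would be. Read this way, the listed genes took 13027776 to 15924559 reads per library. Spearman correlations across genes were 0.984 to 0.992 between libraries of a group and 0.734 to 0.776 between groups. The table's rows run in the order of their p as fitted here (Spearman correlation 0.978, taken across genes), and 10772 of the 10854 tested genes had an unadjusted p under 0.05. The genes had therefore been selected for a difference, and unlisted genes were not analysed here. Among tested genes, limma, a linear model on log2(value + 1), called 41.3% of genes higher in grafts and 39.2% of genes lower (80.4% in all; adjusted p under 0.05), and the median log2 fold change was 0.28. Groups did not overlap for 97.6% of tested genes, with grafts above for 49.6% and below for 48.0%. Groups did not overlap for any of the 6 genes either, which their choice fixes. Setting 76 ribosomal protein genes, whose median log2 fold change was 0.76, to no change moved the median of all tested genes to -0.56 and the share of calls that were higher to 24.7%, against 51.3% as deposited. The directions of the 6 genes were the same on every scaling tried, which their choice for a difference on this contrast all but fixed. The rises of some other named genes did not hold on the ribosomal protein scale, as given beside them.

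Markers of most cell types also differed between the groups. Beside them, 41.3% of all tested genes were called higher and 39.2% lower. All 12 adipocyte markers were called lower, with sums of 27188, 10477 and 7784 normalized counts in grafts, against 374265, 520680 and 351082 before grafting. Cfd, Fabp4 and Pnpla2 had the highest normalized counts among them. All 12 macrophage markers were called higher, led by Lyz2, Csf1r and Cd14, with sums of 217118 to 237468 in grafts, against 28905 to 33647 before grafting. The 8 listed of 10 neutrophil markers were called higher as well, led by S100a9, Mmp9 and S100a8, with sums of 58340 to 93629 in grafts, against 729 to 884 before grafting. Fibroblast marker sums, mostly Col1a1, Col1a2 and Dcn, were 521568 to 781303 in grafts, against 65286 to 85350 before grafting, and 4 of 7 listed markers were called higher and 1 lower. Endothelial marker sums, with Kdr, Esam and Egfl7 the highest members, were 4309 to 5719 in grafts, against 8497 to 10240 before grafting. Of 5 listed endothelial markers, 2 were called lower, near the 39.2% of all tested genes, and 3 were not called. None of the 11 red cell markers, hemoglobin genes included, was in the table, so blood was not analysed here. In these bulk libraries, fewer cells of a type and less RNA per cell cannot be told apart, and the part of cell makeup in each result below was not tested.

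Hmox1 (ENSMUSG00000005413, chromosome 8, 75093621 to 75100589, plus strand, GRCm38) is the inducible heme oxygenase. It had 46230, 30056 and 28194 normalized counts in grafts, against 925.9, 1021 and 826.3 before grafting. The groups lay far apart, and graft replicate 1 stood above the other grafts. The means were 34826 ± 9919 in grafts and 924.4 ± 97.5 before grafting (SD, n = 3 each), a log2 fold change of 5.20 (SE 0.19). By mean normalized count, not divided by gene length, Hmox1 ranked 26th of 12163 listed genes in grafts and 2917th before grafting.

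The other genes of heme breakdown differed far less. Hmox2, the constitutive heme oxygenase, averaged 927.1 ± 69.6 in grafts and 635.8 ± 31.9 before grafting (log2 fold change 0.54, SE 0.10, limma adjusted p = 0.00656), missed the threshold at equal listed totals (0.41, adjusted p = 0.0543) and was at -0.22 with ribosomal protein genes set to no change. The biliverdin reductases Blvra and Blvrb, which turn biliverdin into bilirubin, rose by 1.05 (SE 0.16, adjusted p = 0.00227) and 1.02 (SE 0.14, adjusted p = 0.00132). With ribosomal protein genes at no change they kept their sign, at 0.29 and 0.26, and missed the threshold. So all 3 listed relatives in heme degradation were called higher, against 41.3% of tested genes.

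Genes that build heme lay on the other side. Of 7 listed of 11 synthesis genes, 5 were called lower and 0 higher, against 39.2% lower among tested genes, and their median log2 fold change was -0.85. Alad, which joins the first precursors into a ring, averaged 172.6 ± 13.8 in grafts and 944.5 ± 164.9 before grafting (-2.43, SE 0.15, adjusted p = 1.6e-05). Alas1, the first and rate-limiting enzyme of the path outside red cells, averaged 2590 ± 510 in grafts and 5675 ± 1511 before grafting (-1.11, SE 0.21, adjusted p = 0.00739). Uros, a later enzyme of the path, fell by 1.63 (SE 0.17, adjusted p = 0.000238). Among 7 genes of heme transport, 5 were called higher and 2 lower, beside the same background of 41.3% and 39.2%. Hp, haptoglobin, which binds free hemoglobin in plasma, averaged 62969 ± 3422 in grafts and 21413 ± 3547 before grafting (1.57, SE 0.14, adjusted p = 0.000117). Lrp1, the receptor for heme bound to hemopexin, and the heme exporter Flvcr1 were higher by 1.50 and 1.11 on the log2 scale. With ribosomal protein genes at no change Flvcr1 missed the threshold (0.35, adjusted p = 0.0648). The exporter Abcg2 and the heme-binding Pgrmc1 had log2 fold changes of -1.19 and -0.89.

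**Figure D1:**
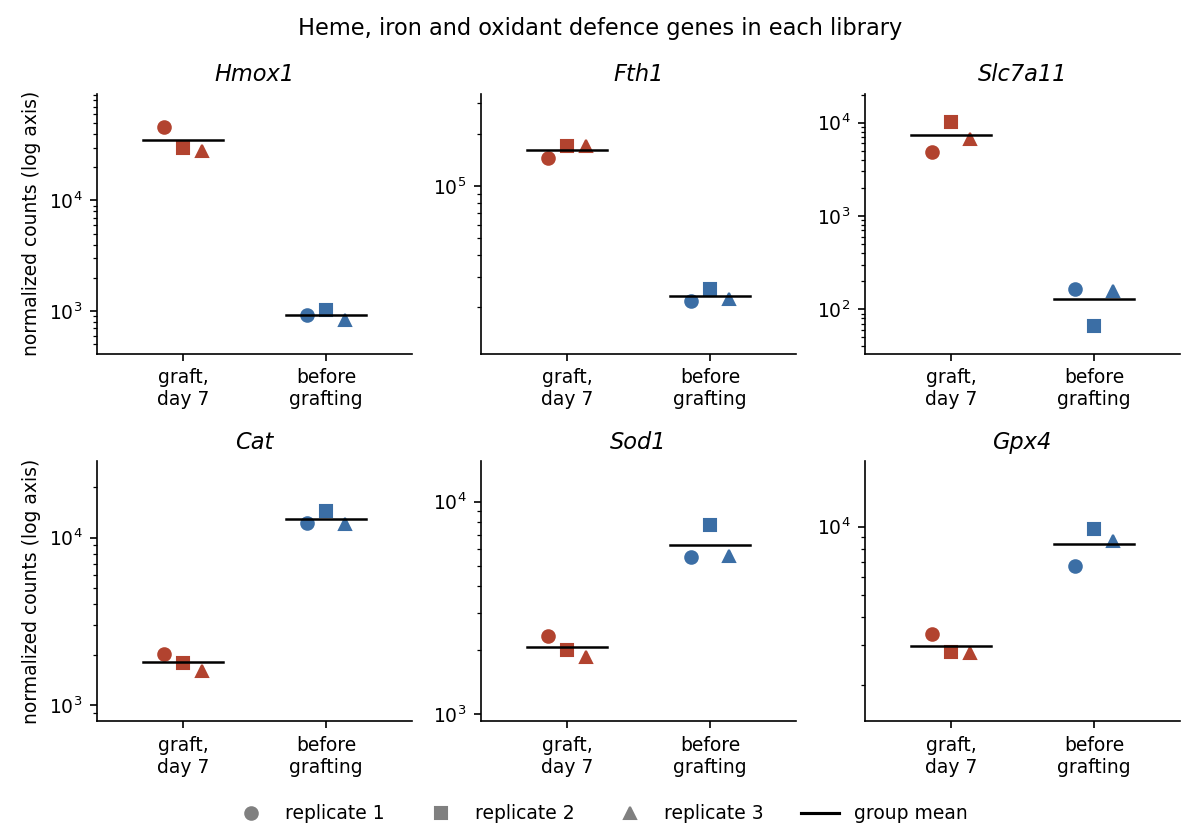
Normalized counts (log axis) of the 6 genes in each of the 3 graft libraries and the 3 libraries before grafting, with the symbol giving the replicate number and the line the group mean. Groups are separate in all 6 panels: Hmox1, Fth1 and Slc7a11 lie above in grafts, Cat, Sod1 and Gpx4 below.

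Fth1 (ENSMUSG00000024661, chromosome 19, 9982703 to 9985092, plus strand) encodes the ferritin heavy chain, which oxidises iron as it enters the shell. Its levels were 145331, 170565 and 170440 normalized counts in grafts, against 21639, 25621 and 22287 before grafting. Graft replicate 1 was the lowest graft and still far above each library before grafting. The means were 162112 ± 14533 in grafts and 23182 ± 2137 before grafting, a log2 fold change of 2.81 (SE 0.12). Fth1 took 1.01% to 1.17% of all listed normalized counts in grafts, against 0.167% to 0.178% before grafting. By mean count, not divided by length, it ranked 4th in grafts and 57th before grafting. Ftl1, the light chain whose hairpin stands beside that of Fth1 above, averaged 42204 ± 2114 in grafts and 8175 ± 498 before grafting (2.37, SE 0.10, adjusted p = 3.15e-06). The storage list held 2 other genes. Pcbp1, a chaperone that hands iron to ferritin, averaged 4137 ± 253 in grafts and 2534 ± 231 before grafting (0.71, adjusted p = 0.00158), but was at -0.05 with ribosomal protein genes at no change. Ncoa4, which takes ferritin to lysosomes for breakdown, was lower, with 1193 ± 109 in grafts and 2012 ± 147 before grafting (-0.75, SE 0.10, adjusted p = 0.00125).

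Iron uptake genes were called higher in 8 of 13 listed cases and lower in 2, against 41.3% higher and 39.2% lower among tested genes, with a median log2 fold change of 1.18. Lcn2, lipocalin 2, which binds bacterial iron carriers and is abundant in neutrophils, averaged 18261 ± 3371 in grafts and 48.6 ± 23.8 before grafting (8.61, SE 0.30, adjusted p = 1.83e-06). Slc11a1, the iron transporter of phagosomes, averaged 6850 ± 702 in grafts and 384.5 ± 18.7 before grafting (4.15, SE 0.10, adjusted p = 5.97e-07). Macrophage and neutrophil markers rose in the same libraries, and which cells the reads of Lcn2 and Slc11a1 came from was not tested. Steap1, of a family of metal reductases, rose to 278.4 ± 27.1 in grafts, against 6.62 ± 1.08 before grafting (5.20, adjusted p = 5.02e-06). Steap4 of the same family fell, with 6350 ± 1987 in grafts and 14510 ± 2249 before grafting (-1.23, adjusted p = 0.00599). Trf, transferrin, the iron carrier of plasma, was also lower, at 268.0 ± 90.4 in grafts and 2131 ± 446 before grafting (-3.02, SE 0.25, adjusted p = 8.54e-05).

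Tfrc, the transferrin receptor, did not hold up against the spread between libraries. It averaged 1727 ± 139 in grafts and 1187 ± 200 before grafting (0.55, SE 0.14, adjusted p = 0.0283). The call was lost without graft replicate 1 (0.55), graft replicate 3 (0.49), before-grafting replicate 1 (0.59) or before-grafting replicate 2 (0.41), and the value was -0.21 with ribosomal protein genes at no change. It was also lost at median ratios (0.44) and equal listed totals (0.42).

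Of 7 listed genes that export or sense iron, 2 were called higher and 4 lower, where 41.3% and 39.2% of tested genes were. Slc40a1, ferroportin, the only known cellular iron exporter, averaged 1277 ± 232 in grafts and 314.2 ± 54.9 before grafting (2.02, SE 0.18, adjusted p = 0.000111). Fbxl5, which marks the iron sensor IRP2 for degradation when iron is plentiful, averaged 10574 ± 1111 in grafts and 1610 ± 136 before grafting (2.71, SE 0.11, adjusted p = 3.1e-06). Aco1, the other sensor, IRP1, was lower, at 1115 ± 170 in grafts and 4927 ± 276 before grafting (-2.15, SE 0.12, adjusted p = 1.15e-05). Ireb2, which encodes IRP2, missed the threshold (0.25, adjusted p = 0.181), except with adjustment over the tested genes alone (adjusted p = 0.0354). Heph, a ferroxidase that works with ferroportin, averaged 168.5 ± 68.1 in grafts and 1682 ± 104 before grafting (-3.41, adjusted p = 0.000112), and Bmp6, a growth factor that raises the iron hormone hepcidin, fell by 3.49 (adjusted p = 9.86e-06). Cp, ceruloplasmin, the plasma ferroxidase, was at -0.48 (adjusted p = 0.0164), a call lost without graft replicate 1 (-0.45), before-grafting replicate 2 (-0.47) or before-grafting replicate 3 (-0.40).

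Slc7a11 (ENSMUSG00000027737, chromosome 3, 49892526 to 50443614, minus strand) had 4906, 10271 and 6732 normalized counts in grafts, against 165.7, 66.9 and 156.4 before grafting. Graft replicate 2 was the highest graft, and before-grafting replicate 2 the lowest library of all. The means were 7303 ± 2728 in grafts and 129.6 ± 54.6 before grafting, a log2 fold change of 5.85 (SE 0.39). This gene had the widest spread of the 6, with a coefficient of variation of 37.3% in grafts and 42.1% before grafting, and leaving out one library at a time gave 5.43 to 6.10. Slc3a2, the heavy chain that xCT needs to reach the membrane, averaged 4421 ± 451 in grafts and 1609 ± 82 before grafting (1.45, SE 0.10, adjusted p = 3.15e-05).

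Of 11 listed genes of cystine and glutathione supply, 4 were called higher and 6 lower, beside 41.3% and 39.2% of tested genes, and their median log2 fold change was -0.65. Gclm, the regulatory subunit of the first enzyme of glutathione synthesis, averaged 2595 ± 214 in grafts and 898.9 ± 130.5 before grafting (1.54, SE 0.13, adjusted p = 7.69e-05). Gsr, which restores used glutathione, averaged 6984 ± 531 in grafts and 787.8 ± 76.0 before grafting (3.15, SE 0.11, adjusted p = 1.4e-06). Glrx, glutaredoxin, which frees proteins bound to glutathione, rose by 4.01 (SE 0.15, adjusted p = 1.99e-06). These rises touch synthesis, recycling and use of glutathione. Slc7a10, a carrier of small neutral amino acids abundant in fat cells, had 31.2 ± 30.6 in grafts and 2827 ± 287 before grafting (-6.89, SE 0.58, adjusted p = 0.000113). It uses the same heavy chain as xCT, and adipocyte markers were lower in the same grafts. Cth, which makes cysteine inside the cell, averaged 10.9 ± 2.8 in grafts and 120.3 ± 35.3 before grafting (-3.33, adjusted p = 0.000175), and Ggt5, which cleaves glutathione outside the cell, fell by 0.86 (adjusted p = 0.0055).

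Cat (ENSMUSG00000027187, chromosome 2, 103453849 to 103485160, minus strand) had 2022, 1782 and 1607 normalized counts in grafts, against 12212, 14313 and 12051 before grafting. The highest graft was well under the lowest library before grafting. The means were 1804 ± 208 in grafts and 12859 ± 1262 before grafting, a log2 fold change of -2.83 (SE 0.12). By mean count, not divided by length, Cat ranked 1751st of the listed genes in grafts and 99th before grafting. Of 17 listed peroxiredoxins, thioredoxins and related genes, 9 were called higher and 8 lower, a division near that of all tested genes (41.3% and 39.2%). Prdx1, an abundant cytosolic peroxiredoxin, averaged 17595 ± 2936 in grafts and 5383 ± 621 before grafting (1.70, SE 0.14, adjusted p = 8.42e-05). Prdx5, Txnrd1 (cytosolic thioredoxin reductase) and Srxn1 (which repairs over-oxidised peroxiredoxins) rose by 2.24, 1.98 and 2.39 on the log2 scale. The mitochondrial Prdx3 averaged 953.8 in grafts and 2578 before grafting (-1.43, adjusted p = 6.1e-05). Txnip, an inhibitor of thioredoxin, averaged 5053 ± 280 in grafts and 16528 ± 5405 before grafting (-1.65, adjusted p = 0.00147), while Txnrd3 and Msrb2 fell by 2.05 and 1.44.

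Sod1 (ENSMUSG00000022982, chromosome 16, 90220754 to 90226329, plus strand) had 2334, 2014 and 1860 normalized counts in grafts, against 5520, 7765 and 5549 before grafting. Replicate 2 stood above the other libraries before grafting, and the grafts lay close together. The means were 2069 ± 242 in grafts and 6278 ± 1288 before grafting, a log2 fold change of -1.59 (SE 0.16). Sod2, the manganese enzyme of mitochondria, went the other way, with 10716 ± 543 in grafts and 3039 ± 712 before grafting (1.84, SE 0.16, adjusted p = 8.4e-05). Sod3, the secreted enzyme, averaged 5602 ± 772 in grafts and 3918 ± 636 before grafting (0.52, SE 0.15, adjusted p = 0.0471). That call was lost without graft replicate 2 (0.41), graft replicate 3 (0.56), before-grafting replicate 1 (0.42) or before-grafting replicate 3 (0.50), and under both other scalings by listed genes (0.40 at median ratios and 0.39 at equal totals). With ribosomal protein genes at no change Sod3 was at -0.24.

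Gpx4 (ENSMUSG00000075706, chromosome 10, 80047166 to 80056439, plus strand) had 3370, 2786 and 2774 normalized counts in grafts, against 6705, 9728 and 8630 before grafting. Graft replicate 1 was the highest graft and before-grafting replicate 1 the lowest of its group, so that these libraries came nearest to each other. The means were 2977 ± 341 in grafts and 8355 ± 1530 before grafting, a log2 fold change of -1.48 (SE 0.15). Gpx1, the main cytosolic glutathione peroxidase, averaged 9585 ± 432 in grafts and 5782 ± 792 before grafting (0.74, SE 0.12, adjusted p = 0.00262), and was at -0.03 with ribosomal protein genes at no change. Gpx7, a peroxidase of the endoplasmic reticulum, averaged 1087 ± 137 in grafts and 208.6 ± 33.1 before grafting (2.38, SE 0.16, adjusted p = 2.12e-05). Gpx3, the secreted form, overlapped between the groups, with 14493, 18600 and 24278 in grafts, against 12594, 16131 and 11531 before grafting (0.49, adjusted p = 0.215). It passed the threshold without graft replicate 1 (0.68, adjusted p = 0.0431) and with adjustment over the tested genes alone (adjusted p = 0.0421).

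**Figure D2:**
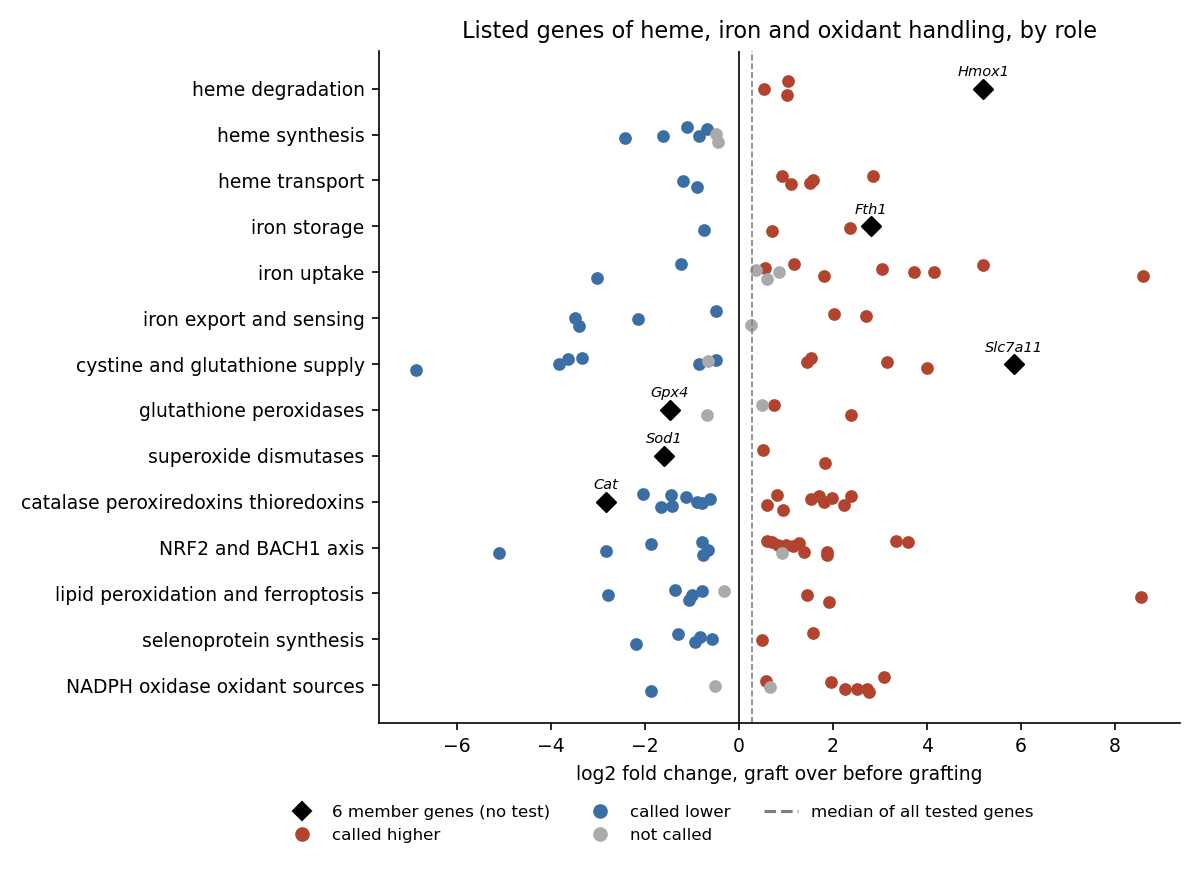
Log2 fold change, grafts over before grafting, of the listed genes of heme, iron and oxidant handling, 1 row per role, with the 6 genes of this account marked apart and the vertical line at the median of all tested genes. Most rows hold genes on both sides of 0, and the genes called in heme synthesis all lie to the left.

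Over all 14 role lists, 155 genes had been chosen beside the 6, and 118 of them were in the table. Of these, 60 were called higher and 45 lower, against 41.3% and 39.2% of tested genes, and the median log2 fold change was 0.59, against 0.28 for all tested genes. With ribosomal protein genes at no change, 39 were called higher. The lists were chosen with earlier results of these data known.

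The NRF2 and BACH1 list holds the factors that drive or repress Hmox1, Slc7a11, Gclm and ferritin genes, and other genes that NRF2 is known to drive. Of 18 listed genes, 11 were called higher and 6 lower (41.3% and 39.2% of all tested genes). Nfe2l2, which encodes NRF2, averaged 4114 ± 688 in grafts and 1838 ± 131 before grafting (1.15, SE 0.14, adjusted p = 0.00051), and was at 0.39, short of the threshold, with ribosomal protein genes at no change. Bach1, the repressor that heme releases from DNA, was higher too, with 3773 ± 178 in grafts and 1027 ± 137 before grafting (1.88, SE 0.12, adjusted p = 1.57e-05). Maff, a small partner of both factors, averaged 960.2 ± 115.8 in grafts and 93.2 ± 11.5 before grafting (3.35, adjusted p = 4.42e-06). Abcc1, an exporter of glutathione conjugates, rose by 1.87. The largest falls in this list were those of Me1, Tkt and Ephx1. Me1, malic enzyme, which makes NADPH, averaged 743.3 ± 34.9 in grafts and 26306 ± 5830 before grafting (-5.12, SE 0.16, adjusted p = 1.14e-06), and Tkt, transketolase, 4077 ± 583 in grafts and 29118 ± 5826 before grafting (-2.83, adjusted p = 1.31e-05). Both are prominent in fat-making adipocytes, whose markers fell in the same libraries. Ephx1, an epoxide hydrolase, fell by 1.87.

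Lipid peroxidation and ferroptosis genes were called higher in 3 of 9 listed cases and lower in 5, where tested genes as a whole had 41.3% and 39.2%. Acsl4, which loads membranes with easily oxidised fatty acids, averaged 2211 ± 314 in grafts and 805.9 ± 73.3 before grafting (1.45, SE 0.13, adjusted p = 0.000114). Ptgs2, cyclooxygenase 2, had 3505, 11493 and 7417 in grafts and averaged 17.3 ± 5.2 before grafting (8.55, SE 0.41, adjusted p = 6.62e-06). It is also a common gene of inflammation. Gch1, the first enzyme of tetrahydrobiopterin synthesis, rose by 1.91. Aifm2, or FSP1, which protects lipids beside Gpx4, was lower, at 499.6 ± 61.5 in grafts and 3478 ± 716 before grafting (-2.79, SE 0.16, adjusted p = 1.14e-05). Dhodh, a mitochondrial enzyme with a similar role, and the phospholipase Pla2g6 fell by 1.07 and 1.36.

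Genes grouped here under selenoprotein synthesis, a process that Gpx4 depends on, were called lower in 5 of 7 listed cases and higher in 2. Among tested genes, 39.2% were lower and 41.3% higher. Not every gene of this group is known to be needed for Gpx4. Of the 5, Scly, which recycles selenium (-0.58, adjusted p = 0.0184, named after its values were seen), lost its call without graft replicate 2 (-0.57), graft replicate 3 (-0.49), before-grafting replicate 1 (-0.53) or before-grafting replicate 3 (-0.59). Sepsecs, which makes selenocysteine on its transfer RNA, averaged 345.1 ± 24.8 in grafts and 852.5 ± 41.0 before grafting (-1.30, SE 0.11, adjusted p = 7.04e-05). Trit1, which modifies that transfer RNA, averaged 147.2 ± 31.0 in grafts and 668.2 ± 108.2 before grafting (-2.19, adjusted p = 0.000127). Selenop, the plasma carrier of selenium, had a log2 fold change of -0.93 (adjusted p = 0.0337), a call lost without graft replicate 2 (-0.82), graft replicate 3 (-0.73), before-grafting replicate 1 (-0.95), before-grafting replicate 2 (-0.92) or before-grafting replicate 3 (-0.91). Lrp8, a receptor for Selenop, averaged 320.8 ± 16.0 in grafts and 115.1 ± 49.2 before grafting (1.58, adjusted p = 0.0107), a call lost with ribosomal protein genes at no change (0.82, adjusted p = 0.235). Sephs1 rose by 0.49 (adjusted p = 0.0105), was at 0.36 short of the threshold at equal listed totals, and was at -0.27 with ribosomal protein genes at no change.

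Sources of oxidants had the highest median of the 14 lists, 2.11, with 7 of 10 listed genes called higher and 1 lower, against 41.3% and 39.2% of tested genes. Cybb, the catalytic subunit of the phagocyte NADPH oxidase, averaged 10354 ± 1038 in grafts and 1231 ± 293 before grafting (3.09, SE 0.17, adjusted p = 1.08e-05). Its partner Ncf4 averaged 2555 ± 163 in grafts and 390.5 ± 88.1 before grafting (2.73, SE 0.16, adjusted p = 1.15e-05). These subunits are typical of macrophages and neutrophils, whose markers were higher in the same grafts, and the part of cell makeup was not tested.

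Ratios within a library do not depend on the scaling between libraries. The pairs below were chosen after the values were seen, and counts are not divided by gene length. Hmox1 over Hmox2 was 46.0, 34.5 and 31.2 in grafts, against 1.42, 1.56 and 1.38 before grafting. Fth1 over Ftl1 was 3.35, 3.92 and 4.29 in grafts, against 2.62, 2.97 and 2.91 before grafting. All grafts lay above all libraries before grafting, and the mean ratio was 1.36-fold higher in grafts. Slc7a11 over its partner Slc3a2 was 1.18, 2.08 and 1.62 in grafts, against 0.108, 0.0394 and 0.0981 before grafting. Hmox1, Fth1 and Slc7a11 had been chosen for their difference, which favours higher ratios in grafts. The rises of their ratios are therefore a description and no test. The 3 genes that were lower in grafts were also set beside a relative of like function. Cat over Prdx1 was 0.131, 0.0852 and 0.0976 in grafts, against 2.61, 2.54 and 2.07 before grafting. Sod1 over Sod2 was 0.230, 0.187 and 0.166 in grafts, against 2.14, 2.01 and 2.07 before grafting. Gpx4 over Gpx1 was 0.335, 0.302 and 0.293 in grafts, against 1.31, 1.46 and 1.55 before grafting. All grafts lay below all libraries before grafting in these 3 ratios. The choice of pairs fixed this, since in grafts each upper gene lay below and each lower gene above its values before grafting. As the counts are not per length, a ratio under or over 1 does not say which gene is the more abundant. The widest shift was that of Slc7a11 over Gpx4, a pair at both ends of lipid repair, with 1.46, 3.69 and 2.43 in grafts, against 0.0247, 0.00687 and 0.0181 before grafting, a 152.3-fold difference of mean ratios. Both genes had been chosen for their difference, in opposite directions, so a wide shift follows from the choice and adds nothing to it.

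**Figure D3:**
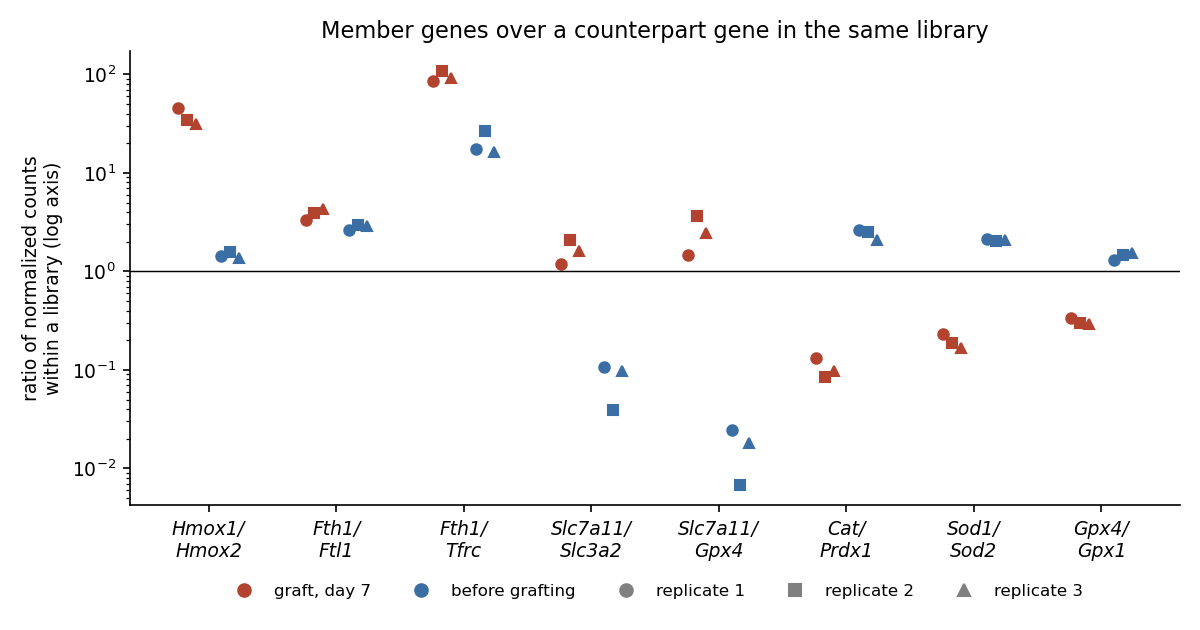
Ratio of normalized counts of each gene to a counterpart in the same library (log axis), grafts beside before grafting, with the symbol giving the replicate number and a line at 1. Cat over Prdx1, Sod1 over Sod2 and Gpx4 over Gpx1 are lower in all 3 grafts than in all 3 libraries before grafting, which the choice of pairs fixes.

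Within grafts the 6 genes did not all vary together. Graft replicate 1 was the highest graft for Hmox1, Cat, Sod1 and Gpx4, by 0.44, 0.17, 0.18 and 0.19 over the group mean on the log2 scale, and the lowest for Fth1 and Slc7a11, at -0.15 and -0.51. The same library had the largest adipocyte marker sum of the grafts (1.06 over the group mean on the log2 scale, with the other grafts at -0.32 and -0.74) and the lowest fibroblast marker sum (-0.34). Macrophage marker sums differed less among grafts, at 0.08, -0.05 and -0.03. Before grafting, replicate 2 was the highest library for Hmox1, Fth1, Cat, Sod1 and Gpx4 and the lowest for Slc7a11 (-0.84), and it had the largest adipocyte marker sum of that group (0.35). With 3 libraries per group these orders are a description, and the part of cell makeup in them was not tested.

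**Figure D4:**
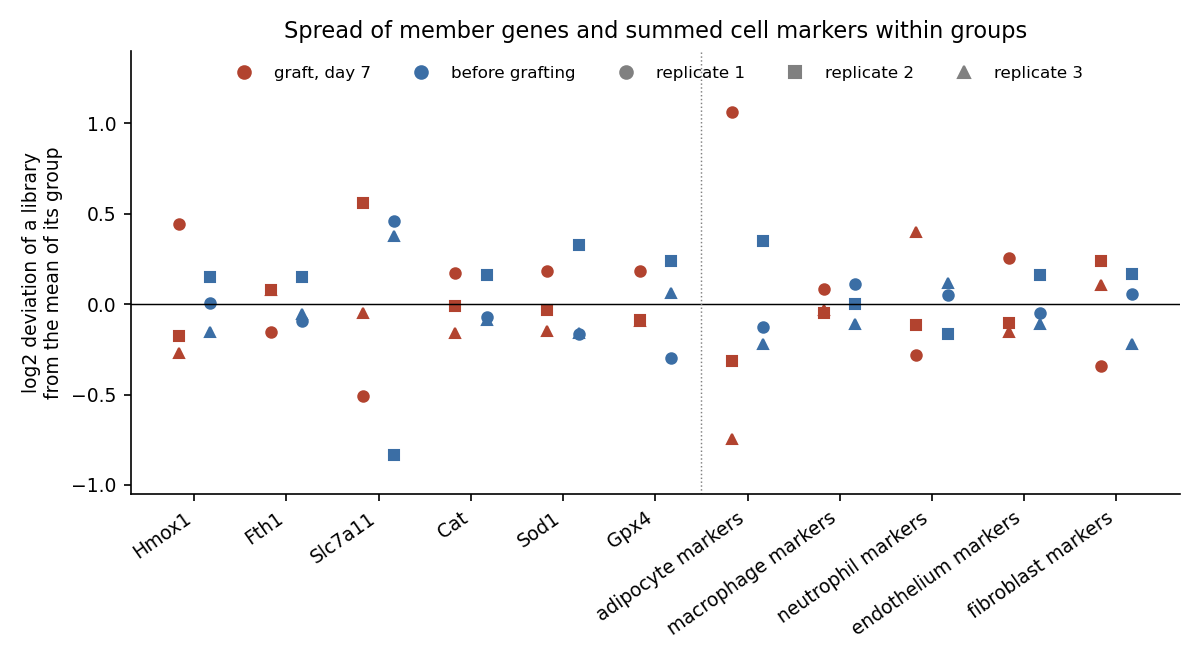
Log2 deviation of each library from the mean of its group for the 6 genes and for summed cell markers, grafts beside before grafting, with the symbol giving the replicate number. Slc7a11 spreads most among the 6 genes, and graft replicate 1 stands 1.06 above its group for adipocyte markers.

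Levels of different genes can be set side by side only per length. Per kilobase of the deposited gene length, the means in grafts were 187196 for Fth1, 19889 for Hmox1, 1727 for Gpx4, 690 for Cat, 525 for Slc7a11 and 521 for Sod1. Before grafting they were 26769 for Fth1, 4921 for Cat, 4846 for Gpx4, 1581 for Sod1, 528 for Hmox1 and 9.31 for Slc7a11. Hmox1 was thus next to last of the 6 before grafting and second in grafts. In grafts, Cat, Slc7a11 and Sod1 did not stand apart clearly, and before grafting neither did Cat and Gpx4. The order depended on the length used. The deposited length of Sod1, 3970 bases, is that of a transcript with a retained intron, and per kilobase of the main transcript, 641 bases, Sod1 was at 3228 in grafts and 9794 before grafting, above Cat in both groups and the second of the 6 before grafting. On that scale Gpx4 was at 2992 in grafts and 8397 before grafting, and Slc7a11 at 792 in grafts and 14.1 before grafting.

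The genes nearest to each of the 6 in pattern were taken by the distance between log2 profiles over the 6 libraries, each less its mean before grafting, among 7756 genes. Hmox1 was nearest to Hilpda, a lipid droplet gene induced by hypoxia (distance 0.567), the chemokine gene Ccl7 (0.608) and the protease gene Adamts4 (0.729). Slc7a11 was nearest to Adam8 (0.729), Egln3, an oxygen-sensing hydroxylase (0.902), and Ier3 (0.926). Both genes therefore had no very close match, since the distances were 0.0627 to 0.260 for the nearest genes of the other 4. Fth1 was nearest to Tmem119 (0.190), Cdr2l (0.240) and C1qtnf6 (0.260). Cat was nearest to Dock9 (0.134), Vegfb (0.164) and Ahcyl2 (0.203). Sod1 was nearest to Tmem204 (0.0627), the glutamine synthetase gene Glul (0.199) and Tmem205 (0.199). Gpx4 was nearest to Ndufa10, a subunit of respiratory complex I (0.150), Idh3g, of the citric acid cycle (0.162), and Arhgef15 (0.176). The distance takes in both the difference in fold change and the differences between libraries within a group. The log2 fold change was 5.09 for Hilpda beside 5.20 for Hmox1, and 5.70 for Egln3 beside 5.85 for Slc7a11. Hmox1 and Slc7a11 also had the widest spread within groups of the 6. Their SD on the log2 scale was 0.29 and 0.64, against 0.13 to 0.23 for the other 4. So their larger distances are not a matter of fold change alone.

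Reads of near-identical copies could have been split or shared, since the counting method is not given in the sources used here. At 95% identity over at least 200 bases, no other annotated gene matched the main transcripts of Hmox1, Fth1 or Cat. Gpx4 matched 2 genes, the closer being Gpx4-ps2, 99.7% identical over 733 bases, which was itself listed with 515, 578 and 513 normalized counts in grafts, against 1181, 1540 and 1190 before grafting. Adding it to Gpx4 gave a mean 2.75-fold higher before grafting, in place of 2.81-fold. Sod1 matched Gm8566, 97.8% identical over 465 bases, with at most 54.2 in grafts and 160.1 before grafting. A stretch of the long Slc7a11 transcript matched 9 genes, the closest being Gm14150 (96.5% over 373 bases). The listed ones among them were the alpha-tubulin genes Tuba1a and Tuba1c, with sums of 6881, 5987 and 5109 in grafts, against 2274, 2089 and 3060 before grafting, a smaller difference than that of Slc7a11. Sod1 overlaps Scaf4 on the opposite strand, and Slc7a11 overlaps Gm37498 on the same strand and others outside the table, so reads in the overlaps may belong to either gene.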

How the data were processed

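RNA was extracted with Trizol from 6 fat samples, 3 per group, and made into libraries by Illumina protocols, per the labels' protocols. The deposited signal is a normalized count per gene. The authors' values were whole multiples of 1 step per library (100% within 0.01), as counts divided by 1 size factor per library would be, and the 6 tables of single samples repeat the series table value for value. The deposited gene lengths (bases) were used for levels per kilobase only. The authors' group means were not used. Bowtie 0.12.2, HISAT2 2.0.5, mm8 and mm9 are named in the submitters' processing notes, but coordinates match GRCm38: 12151 of 12163 genes were found in GENCODE M21 and 12011 lay within 1000 bp. Which counter, strand setting, normalization tool and filter on genes were used is not given in the sources used here. The full depth is unknown, since totals cover listed genes only.

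A count model had been planned on reads recovered from these steps. The steps fitted every library, but a separate check of the units did not accept that reading in all of them. The count model was therefore replaced by limma 3.58.1 (R 4.3.3) on log2(value + 1), which understates changes of low genes. Genes with at least 10 in 3 libraries were fitted on all 6 libraries with group as the only term, a mean trend and a robust prior, two-sided. Benjamini-Hochberg adjustment ran over the 55450 annotated genes, with unlisted genes given the highest possible p, and 0.05 was the threshold. The variance prior rests on genes selected for a difference, which limits each p. A log2 fold change is that of grafts over fat before grafting, and ± is the SD of 3 libraries. The labels do not tie replicates to single animals, and p-values measure the spread between these libraries. The model was tested on simulated data in which most genes were unchanged, unlike the genes listed here, so that test does not cover their selection. Other steps used Python 3.11.15 (pandas 2.3.3, numpy 2.4.6, scipy 1.17.1), and matplotlib 3.10.9 drew the figures. The 6 genes, 14 role lists, 6 marker lists, ratios and motifs were chosen with earlier results of these data known. Genes named are the 6, a list of counterparts (of which Gclc, Ccs, Keap1 and Nqo1 were not analysed here), up to 3 called genes per list and direction, taken by size of change (with at least 100 on average in the higher group), the 3 highest markers per cell type and the 3 nearest genes in pattern (mean of at least 100). A gene that this choice names is not reported here. Prdx3, Ireb2 and Scly were named after their values were seen. Alternatives were other scalings, a pseudocount of 5, no filter, adjustment over tested genes, each library left out and replicate number as a block.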

Additional observations from a re-analysis of the deposited data

How the results depend on the processing

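The 6 genes kept their direction under each alternative run, which their choice on this contrast all but fixed. Their log2 fold changes moved by more than the spread between replicates only with the median of 76 ribosomal protein genes held at 0: 4.44 for Hmox1, 2.04 for Fth1, 5.08 for Slc7a11, -3.60 for Cat, -2.35 for Sod1 and -2.24 for Gpx4. That scaling also left 1879 of the listed genes and 39 of the 118 related genes called higher, against 4479 and 60, and turned 10 related genes: Gpx1 (-0.026), Hmox2 (-0.22), Mafk (-0.070), Msrb1 (-0.17), Pcbp1 (-0.054), Pgd (-0.17), Rac1 (-0.18), Sephs1 (-0.27), Sod3 (-0.24) and Tfrc (-0.21). Which scaling is nearer to the RNA content of the tissue was not tested. Leaving out each library in turn gave 4.98 to 5.34 for Hmox1, 2.76 to 2.88 for Fth1, 5.43 to 6.10 for Slc7a11, -2.92 to -2.75 for Cat, -1.68 to -1.43 for Sod1 and -1.63 to -1.36 for Gpx4, with 3752 to 4130 listed genes called higher and 3326 to 4014 lower, and 56 to 60 related genes higher and 39 to 47 lower. With the replicate number as a block, 3912 listed genes were called higher and 3644 lower, and 61 and 43 of the related genes. Deviations of same-numbered libraries correlated at -0.16, -0.13 and 0.04. With 3 libraries per group these values cannot tell whether the numbers pair the libraries. Adjustment over the tested genes alone added 13 calls among the 118 related genes and lost 0. The planned count models were not run. Values between libraries rest on 1 size factor each, totals cover listed genes only, and 3 libraries per group limit what small differences can show.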
